A study of Mus musculus with 4 samples.

Results

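The genes described here are mouse zinc finger genes whose symbols are Zfp9 followed by 2 more digits, called Zfp9xx genes below, measured in E14 embryonic stem cells after knockdown of Lx8-SINE B2, an RNA named for 2 mouse repeat families. Of 41 rows of the deposited gene count table with such a symbol, 39 had a count of 10 or more in at least 2 of the 4 libraries and were kept, out of 35976 gene rows in all. Of the pair left out, Zfp931 had counts of 7 and 9 in the knockdown libraries and 4 and 20 in the controls, and Zfp957 had 0 and 0 in the knockdown libraries and 1 and 1 in the controls. The kept genes with the smallest totals were Zfp965, with 8 and 11 counts in the knockdown libraries and 10 and 19 in the controls, and Zfp947, with 11 and 22 in the knockdown libraries and 12 and 5 in the controls. The cells, of the strain labelled 12910la, grew on gelatin in medium with 15% serum and the cytokine LIF, which holds back differentiation. There were 2 knockdown libraries, whose genotype is labelled knocked down, and 2 control libraries, labelled wild type. Knockdown cells received short hairpin RNA against Lx8-SINE B2 from a pSuper puro plasmid. The one protocol text attached to all 4 samples gives 1000 ng of vector, then from 24 h after transfection 3 days of puromycin at 1 µg/ml. It does not say which plasmid the controls received, and the targeted RNA itself was not analysed here.

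Most Zfp9xx genes encode KRAB zinc finger proteins. Each such protein binds a DNA sequence, often inside a transposable element, through a row of C2H2 zinc fingers, and its KRAB domain recruits the scaffold TRIM28, which brings the histone methyltransferase SETDB1 and silences the bound element. The genes multiply by local duplication, so neighbours on a chromosome are often close copies of one another. In mouse embryonic stem cells this family is known for silencing endogenous retroviruses, and Zfp932, one of the genes kept here, is known to bind endogenous retroviruses of the ERVK class together with its paralogue Gm15446.

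The 39 genes lay on 11 chromosomes. When neighbouring rows less than 2 Mb apart were joined, 20 of the 39 fell into groups of several members, and the others stood alone. One group on distal chromosome 2 (RefSeq positions, GRCm38.p6, the same assembly as mm10, 175372034 to 178078425) held 8 members and, at its end, Zfp931, which was not kept. The 8 members were Zfp968, Zfp965, Zfp966, Zfp967, Zfp973, Zfp970, Zfp972 and Zfp971. Another group, on chromosome 17 (21565816 to 22867309), held 7 members: Zfp948, Zfp942, Zfp943, Zfp947, Zfp944, Zfp946 and Zfp945. On chromosome 8, a group (69209018 to 69749962) held Zfp930, Zfp964 and Zfp963, and one on chromosome 13 (62453016 to 62579321) held Zfp935 and Zfp934. A full coding sequence in GENCODE M21 was found for 38 of the 39. In its translation, a stretch resembling the KRAB A box was found in 37, the exception being Zfp956. At least 1 C2H2 finger motif was found in 36 of the 38, with 6 to 18 motifs per protein and a median of 11. The longest annotated coding sequences of Zfp972 and Zfp935 held 0 finger motifs and were short, at 417 and 450 bases.

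The distal chromosome 2 genes were so alike that several could hardly be separated by reads. The coding sequences of Zfp966, Zfp967 and Zfp968 were identical over all 1455 bases, and those of Zfp965 and Zfp973 were identical over all 954 bases. Between these sets the longest exact stretch was 190 bases. It is shown in capitals below for 1 gene of each set, within the sense strand of the spliced coding sequence (GENCODE M21, GRCm38), from base 203 to base 472, because counts of these genes rest on telling such stretches apart.
Zfp968: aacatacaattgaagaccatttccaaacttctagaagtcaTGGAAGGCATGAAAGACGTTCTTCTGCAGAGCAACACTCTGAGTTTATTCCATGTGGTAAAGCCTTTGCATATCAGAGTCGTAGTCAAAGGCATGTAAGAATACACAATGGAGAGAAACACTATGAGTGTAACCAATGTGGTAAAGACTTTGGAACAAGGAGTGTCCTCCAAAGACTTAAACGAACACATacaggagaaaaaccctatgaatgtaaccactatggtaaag
Zfp965: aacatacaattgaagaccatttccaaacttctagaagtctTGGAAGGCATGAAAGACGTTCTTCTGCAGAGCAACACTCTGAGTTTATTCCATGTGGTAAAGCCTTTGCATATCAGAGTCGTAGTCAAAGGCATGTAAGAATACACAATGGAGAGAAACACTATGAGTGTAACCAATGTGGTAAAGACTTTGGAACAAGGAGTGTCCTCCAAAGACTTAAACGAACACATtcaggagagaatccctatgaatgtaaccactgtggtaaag
Over whole transcripts, 100% of the 100-base stretches of Zfp967 occurred in a transcript of another gene. The share was 93.4% for Zfp965, 88.6% for Zfp968, 79.9% for Zfp966 and 73.2% for Zfp973. Away from chromosome 2, Zfp935 shared 99.3%, nearly all with the overlapping model Gm49359, and Zfp960 shared 68.3% with Zfp97. In all, 7 members shared at least 50% of their stretches, 6 shared 10% to 50%, and 26 shared under 10%, of which 12 shared none. Of the 39, 9 had exons that overlapped exons of another gene. Whether the counting used strand, and what it did with reads that map to several places, is not stated in the labels or notes, so the counts of the 7 most alike genes are uncertain.

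**Figure D1:**
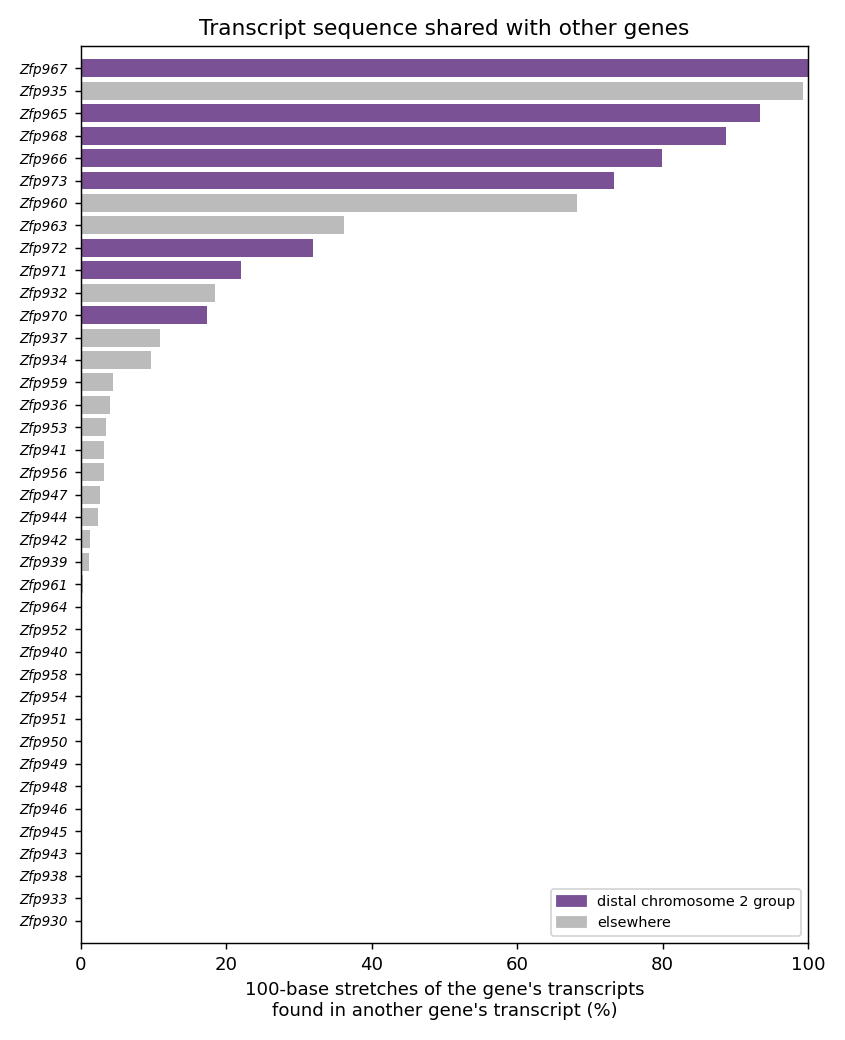
Share of the 100-base stretches of each gene's GENCODE M21 transcripts that also occur in a transcript of another gene (horizontal axis, percent), for the 39 Zfp9xx genes, 1 bar each. Purple bars mark the distal chromosome 2 group. Zfp967 reaches 100%, and 26 genes lie under 10%.

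The start regions of the distal chromosome 2 genes were copies of one another as well. RefSeq promoter windows, from 250 bases before to 50 bases after a start, were available for 36 of the 39 genes, in 42 windows. The windows of Zfp966 and Zfp967 were identical over all 300 bases, and that of Zfp968 shared an exact stretch of 274 bases with both. Zfp971 shared 98 bases with each of these 3, and Zfp972 shared 32. Windows of 4 of them are shown to let the range of likeness be seen. Capitals mark the 3 exact stretches of 12 or more bases that all 8 windows of the group had in common, of 30, 13 and 20 bases in this order. Coordinates are GRCm38.p6: chr2:175372186-175372485 on the plus strand for Zfp968, chr2:175931051-175931350 on the minus strand for Zfp966, chr2:178023034-178023333 on the plus strand for Zfp971 and chr2:177925601-177925900 on the minus strand for Zfp972.
Zfp968: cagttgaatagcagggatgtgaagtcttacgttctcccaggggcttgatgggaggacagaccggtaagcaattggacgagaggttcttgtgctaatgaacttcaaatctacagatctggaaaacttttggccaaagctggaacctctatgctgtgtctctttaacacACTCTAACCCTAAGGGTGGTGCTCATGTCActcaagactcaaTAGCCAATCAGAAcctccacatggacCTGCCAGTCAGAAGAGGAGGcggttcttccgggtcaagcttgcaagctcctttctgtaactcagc
Zfp966: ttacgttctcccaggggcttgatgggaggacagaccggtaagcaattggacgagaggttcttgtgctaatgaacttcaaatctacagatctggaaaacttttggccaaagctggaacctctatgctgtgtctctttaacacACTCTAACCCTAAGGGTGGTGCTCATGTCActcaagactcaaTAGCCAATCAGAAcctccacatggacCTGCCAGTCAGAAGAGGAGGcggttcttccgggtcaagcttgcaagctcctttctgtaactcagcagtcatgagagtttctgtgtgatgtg
Zfp971: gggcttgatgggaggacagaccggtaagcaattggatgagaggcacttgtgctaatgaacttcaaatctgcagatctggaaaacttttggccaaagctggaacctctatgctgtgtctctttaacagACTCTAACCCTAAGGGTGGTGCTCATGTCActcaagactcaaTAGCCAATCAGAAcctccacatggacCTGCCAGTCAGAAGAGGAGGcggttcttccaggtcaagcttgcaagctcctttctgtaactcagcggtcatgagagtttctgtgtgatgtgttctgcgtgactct
Zfp972: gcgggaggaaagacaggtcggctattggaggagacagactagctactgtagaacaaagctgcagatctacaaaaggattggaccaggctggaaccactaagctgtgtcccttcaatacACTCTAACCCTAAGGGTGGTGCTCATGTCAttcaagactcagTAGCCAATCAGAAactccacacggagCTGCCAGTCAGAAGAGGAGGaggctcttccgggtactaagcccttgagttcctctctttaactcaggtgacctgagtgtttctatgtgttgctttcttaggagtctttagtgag
The marked stretches were found by comparing these windows, so their presence in all 8 is given by the choice. Searched on both strands, ACTCTAACCCTAAGGGTGGTGCTCATGTCA stood in windows of 8 of the 36 genes, of 0 of 293 other numbered Zfp genes and of 29 of 27025 genes overall (0.107%). TAGCCAATCAGAA stood in windows of the same 8 genes, of 3 other numbered Zfp genes (1.02%) and of 33 genes overall (0.122%). CTGCCAGTCAGAAGAGGAGG stood in windows of the same 8 genes, of 0 other numbered Zfp genes and of 25 genes overall (0.0925%). Of the 21 genes outside the 39 kept genes that held the 30-base stretch, all 21 lay on chromosome 2. Of them, 16 lay within the span of the 8 members (175372034 to 178035859). TAGCCAATCAGAA holds a CCAAT box, the motif bound by the factor NF-Y. CCAAT on either strand stood in windows of 27 of the 36 genes (75%), against 49.1% of other numbered Zfp genes and 41.1% of all genes. Copied promoters are not independent, and a match is a description, not a site.

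Zfp9xx transcripts were scarce, and Zfp961 stood far above the others. Levels are given as counts per 1000000 (CPM) scaled by TMM, a scaling factor computed by edgeR. Mean levels over the 4 libraries ran from 0.650 to 121 CPM with a median of 5.60 CPM. Zfp961, on chromosome 8 from 71951048 to 71970333, had 119 and 144 CPM in the knockdown libraries and 84.4 and 136 CPM in the controls. It supplied 29.1% and 33.8% of the summed Zfp9xx CPM in the knockdown libraries and 26.9% and 30.1% in the controls. Per kilobase of exon, Zfp961 was at 30.3 CPM per kb in the knockdown libraries and 25.4 CPM per kb in the controls, on average. Zfp936 came next, at 9.76 and 7.01 CPM per kb in knockdown and control cells, followed by Zfp951 at 6.11 and 5.03, Zfp954 at 4.99 and 5.75 and Zfp956 at 6.19 and 4.53. The knockdown and control levels of Zfp951, Zfp954 and Zfp956 interleave on this scale, so their order was not resolved. Zfp935, at 5.72 and 2.89 CPM per kb in knockdown and control cells, lay among them in knockdown cells and below them in control cells. An exon of Cyp4f18, on the other strand, overlaps exons of Zfp961, and without strand the reads of the pair cannot be told apart there.

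**Figure D2:**
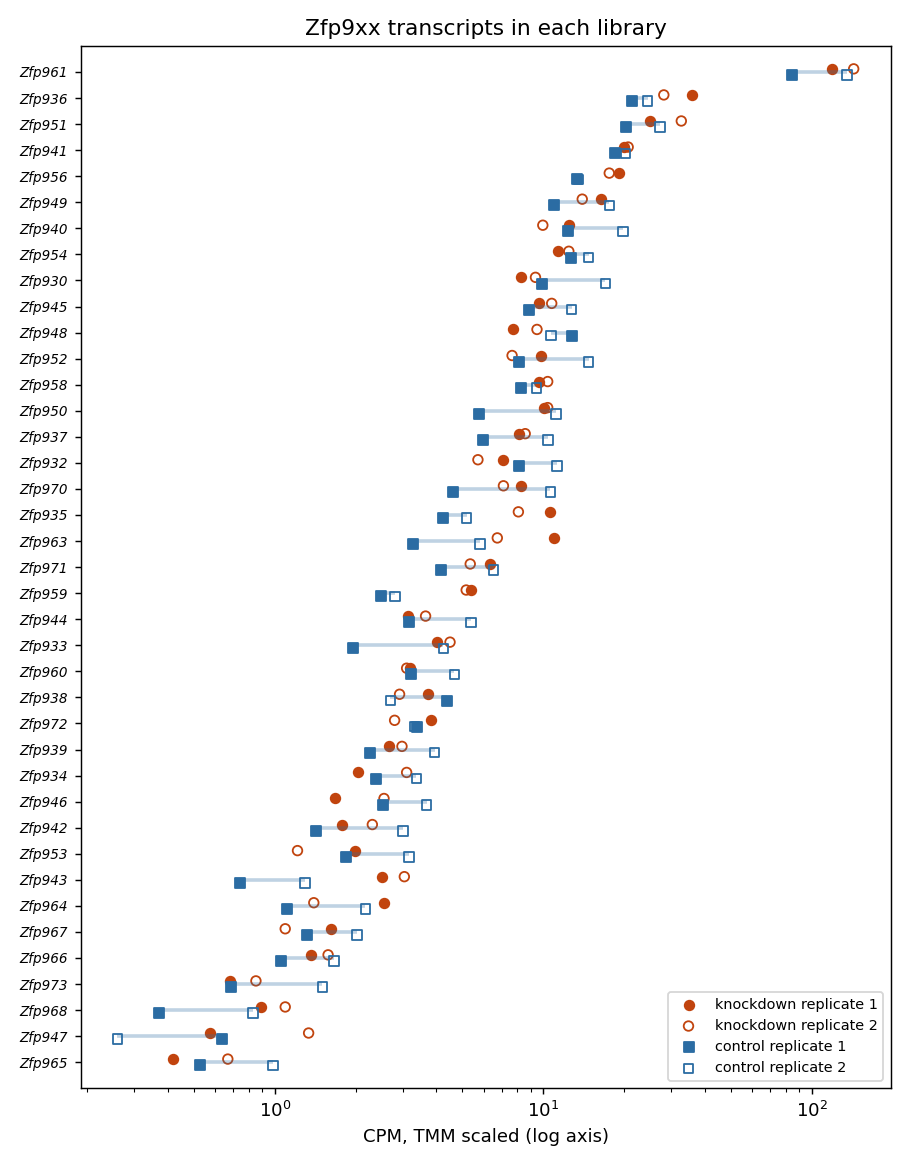
CPM (TMM scaled, log axis) of the 39 Zfp9xx genes in each library, sorted by mean level; circles are knockdown libraries, squares are controls, filled for replicate 1 and open for replicate 2, and blue lines join the 2 controls. Open squares lie to the right of filled squares for 35 of the 39 genes.

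No Zfp9xx gene was called different between knockdown and control cells. The comparison asked which transcripts changed when the Lx8-SINE B2 RNA was targeted. It was tested with edgeR's quasi-likelihood test over 16209 genes, and a gene was called at a Benjamini-Hochberg adjusted p below 0.05. All 39 genes were tested and 0 were called, where 1.43% of all tested genes were, 0.876% as higher and 0.555% as lower. DESeq2 also called 0, giving no adjusted p for Zfp947, Zfp965 and Zfp968, where it called 6.83% of all tested genes, and 4 of the 39 had an unadjusted p below 0.05, against 17.6% of all. The likelihood ratio test of edgeR called 0, against 8.08% of all tested genes, with 4 of the 39 at an unadjusted p below 0.05, against 19.8% of all. In the quasi-likelihood test, at an unadjusted p below 0.05 there were 3 of the 39, all higher in the knockdown libraries, or 7.69%, against 19.6% of all tested genes. Log2 fold changes, knockdown over control, were above 0 in 20 genes and below 0 in 19, from -0.64 to 1.44, with a median of 0.01, and the median over all tested genes was also 0.01. The groups did not overlap in 8 genes that were higher in both knockdown libraries, beside 27.3% of all tested genes, and in 5 that were lower, beside 24.6%. In the other 26 genes (66.7%) they overlapped, and 51.9% of all tested genes had groups that did not. Separate cultures are not named for libraries of the same group, so the p-values reflect the spread of these libraries alone, and that spread may be technical. The titles use the word batch for knockdown libraries and not for controls, so an effect of batch cannot be told apart from the knockdown.

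The 4 genes with the smallest p-values were Zfp943, Zfp935, Zfp959 and Zfp963. Zfp943, a KRAB zinc finger gene of the chromosome 17 group with 11 finger motifs (21962559 to 21994366), had 48 and 50 counts in the knockdown libraries, against 14 and 25 in the controls, or 2.51 and 3.04 CPM against 0.74 and 1.30 CPM. Both knockdown libraries lay above both controls. The log2 fold change of 1.44 (SE 0.51) had a 95% interval from 0.26 to 2.62 and an edgeR adjusted p of 0.177. Its exons overlap those of Gm9772 on the other strand, whose reads cannot be told apart there without strand. Zfp935, on chromosome 13 from 62453016 to 62466852, had 10.6 and 8.09 CPM in the knockdown libraries and 4.23 and 5.19 CPM in the controls, again with no overlap. The difference was 0.99 on the log2 scale (SE 0.35, edgeR adjusted p = 0.177), on counts that may be shared with Gm49359 over nearly the whole transcript. Its neighbour Zfp934, with 2.04 and 3.10 CPM in the knockdown libraries and 2.38 and 3.37 CPM in the controls, had a log2 fold change of -0.16.

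Zfp959, a gene with 9 finger motifs on chromosome 17 from 55891084 to 55898935, away from the group on that chromosome, had 5.39 and 5.17 CPM in the knockdown libraries and 2.48 and 2.80 CPM in the controls. Libraries of a group lay close together and the groups were apart by about 2-fold, with a log2 fold change of 1.00 (SE 0.39, edgeR adjusted p = 0.211). Of these 4 genes it shared the least transcript sequence after Zfp943, 4.47% against 0%. Zfp963, on chromosome 8 from 69741639 to 69749962, had 10.9 and 6.75 CPM in the knockdown libraries and 3.28 and 5.81 CPM in the controls. Here the lower knockdown library lay close to the higher control, and the groups were 0.96 apart on the log2 scale (SE 0.43, edgeR adjusted p = 0.268). Of its 100-base stretches 36.2% were shared, nearly all with the overlapping model Gm20422. The 2 other genes of the chromosome 8 group had log2 fold changes of -0.61 (Zfp930) and 0.27 (Zfp964), so the estimates had both signs. The 95% intervals of Zfp963, Zfp930 and Zfp964 all included 0, so whether the group had a common direction was not resolved. None of the 4 genes was called in any fit that left out 1 library.

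Among genes whose mean was no lower than the 8.06 CPM of Zfp932, both knockdown levels of Zfp936, Zfp956 and Zfp958 were above both control levels. Zfp930, Zfp932, Zfp948 and Zfp954 had both below, and none of these differences passed the test. Zfp936, with 11 finger motifs on chromosome 7, had 35.7 and 28.2 CPM in the knockdown libraries and 21.4 and 24.5 CPM in the controls (log2 fold change 0.48, SE 0.23, edgeR adjusted p = 0.304). Zfp956, the gene with no KRAB-like stretch, had 19.1 and 17.6 CPM in the knockdown libraries and 13.4 and 13.5 CPM in the controls (log2 fold change 0.45, SE 0.25, edgeR adjusted p = 0.372). In both genes the groups were apart. Zfp930 had 8.27 and 9.36 CPM in the knockdown libraries and 9.88 and 17.1 CPM in the controls (log2 fold change -0.61, SE 0.35, edgeR adjusted p = 0.378). Zfp932, the silencer of ERVK elements, on chromosome 5 from 109996502 to 110012266, had 7.12 and 5.72 CPM in the knockdown libraries and 8.14 and 11.3 CPM in the controls. Its groups were apart too, by -0.59 on the log2 scale (SE 0.34, edgeR adjusted p = 0.385), with a 95% interval from -1.39 to 0.20. Of the stretches of Zfp932, 18.5% were shared, most with its paralogue Gm15446, which differed by 0.18 on the log2 scale (edgeR adjusted p = 0.853).

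Zfp948, with 15 finger motifs, had 7.74 and 9.49 CPM in the knockdown libraries and 12.8 and 10.7 CPM in the controls, with the groups apart (log2 fold change -0.45, edgeR adjusted p = 0.464). Zfp954 and Zfp958 had smaller log2 fold changes, of -0.21 and 0.18. The remaining large differences belonged to scarce or overlapping genes. Zfp953 had 1.99 and 1.22 CPM in the knockdown libraries and 1.85 and 3.16 CPM in the controls, with a log2 fold change of -0.64. Zfp940 had 12.5 and 9.97 CPM in the knockdown libraries and 12.4 and 19.9 CPM in the controls, with a log2 fold change of -0.52. Zfp946 had 1.67 and 2.55 CPM in the knockdown libraries and 2.54 and 3.68 CPM in the controls, with a log2 fold change of -0.56. In each of these 3 genes, 1 knockdown library lay above the lower control. Zfp933 had 4.03 and 4.50 CPM in the knockdown libraries and 1.95 and 4.25 CPM in the controls, so that 1 control lay between the knockdown libraries, and its log2 fold change was 0.46. Of the 6 genes with the highest mean CPM, Zfp936 and Zfp956 had the groups apart, as given above, and the other 4 had overlapping groups. Zfp951 had 25.1 and 32.7 CPM in the knockdown libraries and 20.3 and 27.3 CPM in the controls (log2 fold change 0.28, edgeR adjusted p = 0.592). Zfp941 had 19.9 and 20.7 CPM in the knockdown libraries and 18.5 and 20.2 CPM in the controls (log2 fold change 0.07, edgeR adjusted p = 0.899). In both genes the higher control lay above the lower knockdown library. Zfp949 had 16.5 and 14.0 CPM in the knockdown libraries and 10.9 and 17.6 CPM in the controls, both knockdown libraries lying between the controls (log2 fold change 0.09, edgeR adjusted p = 0.901). The log2 fold change of Zfp961 was 0.26 (edgeR adjusted p = 0.610).

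**Figure D3:**
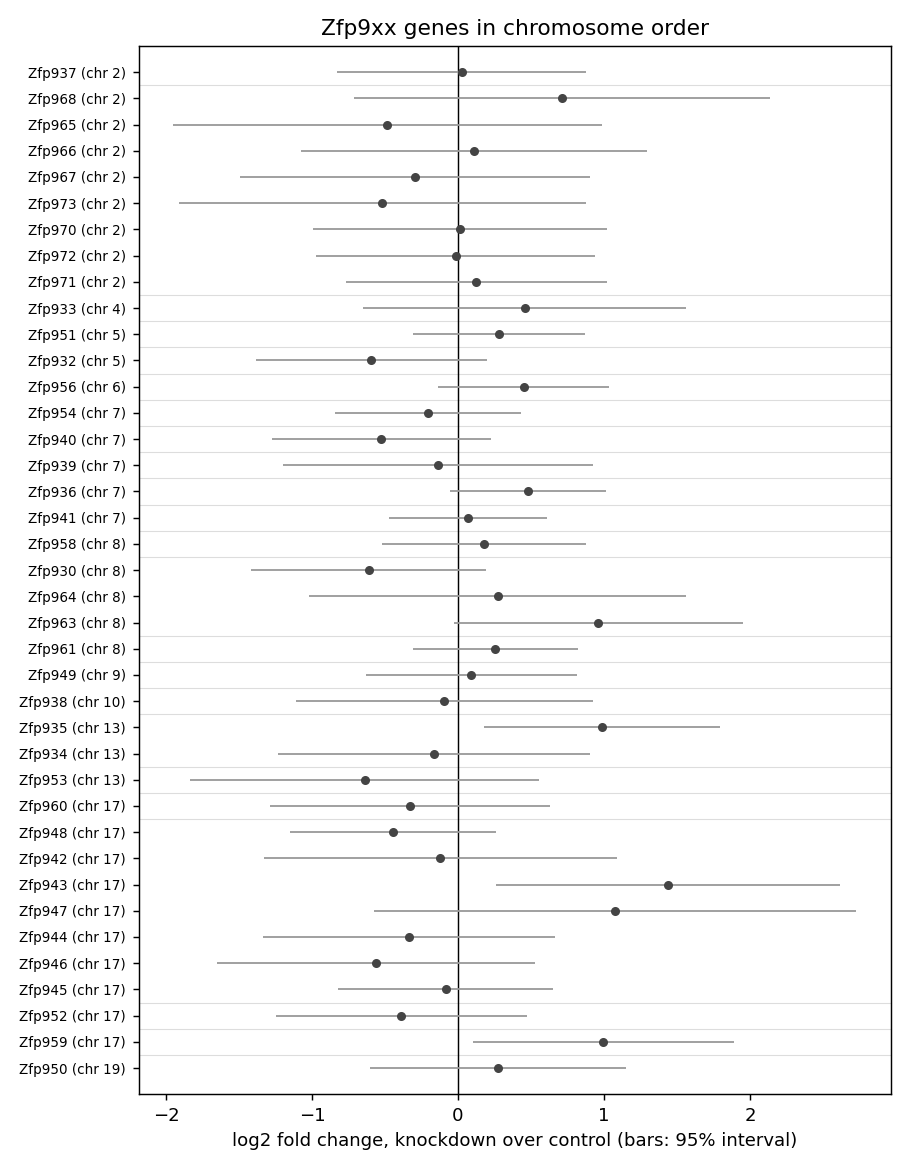
Log2 fold change, knockdown over control, of the 39 Zfp9xx genes in chromosome order, with 95% intervals from the edgeR fit; thin lines separate position groups. Intervals of 36 genes include 0, and within groups the estimates of neighbouring genes have both signs.

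Missing the threshold does not show that levels were equal. The 95% intervals of 36 genes included 0, and those of 30 genes reached a 2-fold change (1 on the log2 scale) in at least 1 direction. Those of the other 9 stayed within 2-fold both ways, among them Zfp961, from -0.31 to 0.82, and Zfp941, from -0.47 to 0.61. The median standard error was 0.42 for the Zfp9xx genes and 0.30 for all tested genes.

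The estimated log2 fold changes had both signs in each of the 4 groups of neighbouring genes. Except for Zfp943 and Zfp935, the 95% intervals of these genes included 0. Whether a group had a common direction was therefore not resolved. In the distal chromosome 2 group, 4 of 8 members had log2 fold changes above 0, from -0.52 for Zfp973 to 0.71 for Zfp968, with a median of -0.0010. The summed level of these 8 genes was 23.4 and 20.6 CPM in the knockdown libraries and 16.1 and 27.5 CPM in the controls, so both knockdown libraries lay between the controls. When the genes with identical coding sequence were summed to 1 feature each, the log2 fold change was 0.07 for Zfp966, Zfp967 and Zfp968 together and -0.50 for Zfp965 and Zfp973 together, with edgeR adjusted p-values of 0.946 and 0.664. In the chromosome 17 group, 2 of 7 members were above 0, Zfp943 and Zfp947. Zfp947 had 0.58 and 1.34 CPM in the knockdown libraries and 0.63 and 0.26 CPM in the controls, with overlapping groups (log2 fold change 1.08, edgeR adjusted p = 0.448). The summed level of that group was 27.1 and 33.1 CPM in the knockdown libraries and 30.1 and 37.1 CPM in the controls.

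For these genes the wider gap was the one between the 2 control libraries. Zfp9xx transcripts were higher in control replicate 2 than in control replicate 1 in 35 of 39 genes (89.7%), against 217 of 311 other numbered Zfp genes (69.8%) and 50.1% of all tested genes. The exceptions were Zfp938, Zfp947, Zfp948 and Zfp972. The median log2 ratio of control replicate 2 to control replicate 1, with 0.1 CPM added to each level, was 0.63 for the Zfp9xx genes, or 1.55-fold, against 0.25 for other numbered Zfp genes and 0.00 for all tested genes. Between the knockdown libraries the median log2 ratio of replicate 2 to replicate 1 was 0.08, with 22 of 39 genes higher in replicate 2. A like gap stood in genes that share little sequence. Among the 26 that share under 10% of their stretches, 23 were higher in control replicate 2, with a median log2 ratio of 0.60. By promoter window, 7 of the 8 genes with the 3 common stretches and 25 of the 28 without them were higher in control replicate 2. The size of the gap between the controls exceeded the difference between the group means in 29 of the 39 genes (74.4%). The share was 55.3% of other numbered Zfp genes and 49.4% of all tested genes. Replicates have no order, and these are descriptions of 2 libraries without a test.

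**Figure D4:**
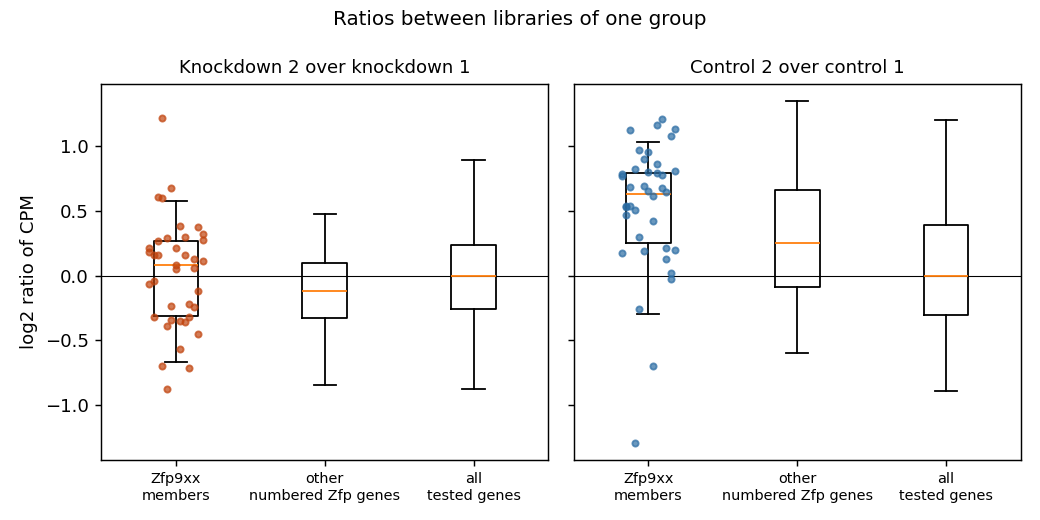
Log2 ratio of CPM between the 2 libraries of a group, for knockdown (left) and control (right). Points are the 39 Zfp9xx genes, as ratios of CPM with nothing added. Boxes give the median and quartiles and whiskers the 5th and 95th percentiles of each set, computed with 0.1 CPM added to each level. The Zfp9xx median is 0.08 for the knockdown pair and 0.63 for the control pair.

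Both knockdown libraries lay between the 2 controls in 10 of the 39 genes (25.6%). The share was 20.3% of other numbered Zfp genes (63 of 311) and 15.7% of all tested genes. Summed over the 39 genes, the level was 410 and 424 CPM in the knockdown libraries, against 314 and 450 CPM in the controls. That is a mean of 417 ± 9.91 CPM in knockdown cells and 382 ± 96.6 CPM in control cells (SD, n = 2 each). The difference between the group means was smaller than the spread of the controls. Without Zfp961 the sums were 291 and 281 CPM in the knockdown libraries and 229 and 315 CPM in the controls. The direction of the family's median depended on which control was left out. Without control replicate 1 the median log2 fold change was -0.21, with 13 of 39 genes above 0. Without control replicate 2 it was 0.26, with 27 of 39 above 0. Zfp961 itself was at -0.05 without control replicate 1 and at 0.59 without control replicate 2, and was called in neither fit.

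Markers of a 2-cell-like state, a rare state of embryonic stem cell cultures that expresses Zscan4 genes, differed between the controls as well. The summed level of 7 such markers was 313 and 380 CPM in the knockdown libraries, against 57.0 and 968 CPM in the controls, and none of the 7 was at 0 in all libraries. Their 4 values therefore rank the libraries as the Zfp9xx sums do, with control replicate 1 lowest and control replicate 2 highest. The part of these cells in the Zfp9xx levels was not tested, and in bulk RNA more cells of a type and more RNA per cell cannot be told apart. Stem cell markers were present in every library, with a sum over 8 genes of 5145 and 5787 CPM in the knockdown libraries and 7334 and 7087 CPM in the controls. One of the 8, Tdgf1, which encodes a Nodal co-receptor, fell to 571 and 602 CPM in the knockdown libraries, against 1133 and 1552 CPM in the controls (log2 fold change -1.19, edgeR adjusted p = 0.044). DESeq2 called Dppa5a as well, at 664 and 1021 CPM in the knockdown libraries and 1437 and 1446 CPM in the controls (log2 fold change -0.77, edgeR adjusted p = 0.130). Neither tool called the other stem cell markers. Log2 fold changes were -0.24 for Pou5f1, -0.07 for Sox2, -0.27 for Nanog, -0.12 for Zfp42 and -0.47 for Utf1. Esrrb was higher, at 0.13. Of the 8 fibroblast markers 2, Lum and Postn, were at 0 in all libraries. The sum was 14.8 and 15.7 CPM in the knockdown libraries and 18.1 and 21.6 CPM in the controls. Of the 4 tested, edgeR called 0 and DESeq2 called 1, Thy1. Thy1 had 2.88 and 5.53 CPM in the knockdown libraries and 13.3 and 12.9 CPM in the controls (log2 fold change -1.64, edgeR adjusted p = 0.079). Col1a1 was also lower, at -0.35 on the log2 scale, and Pdgfra and Col1a2 were higher, at 1.13 and 0.92. The 6 endoderm markers summed to 31.5 and 22.2 CPM in the knockdown libraries and 10.0 and 13.5 CPM in the controls. Of the 5 tested, edgeR called 0 and DESeq2 called 1, Gata6. Gata6 had 8.37 and 5.35 CPM in the knockdown libraries and 1.85 and 2.80 CPM in the controls (log2 fold change 1.56, edgeR adjusted p = 0.110). Among all tested genes, edgeR called 1.43% and DESeq2 called 6.83%.

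**Figure D5:**
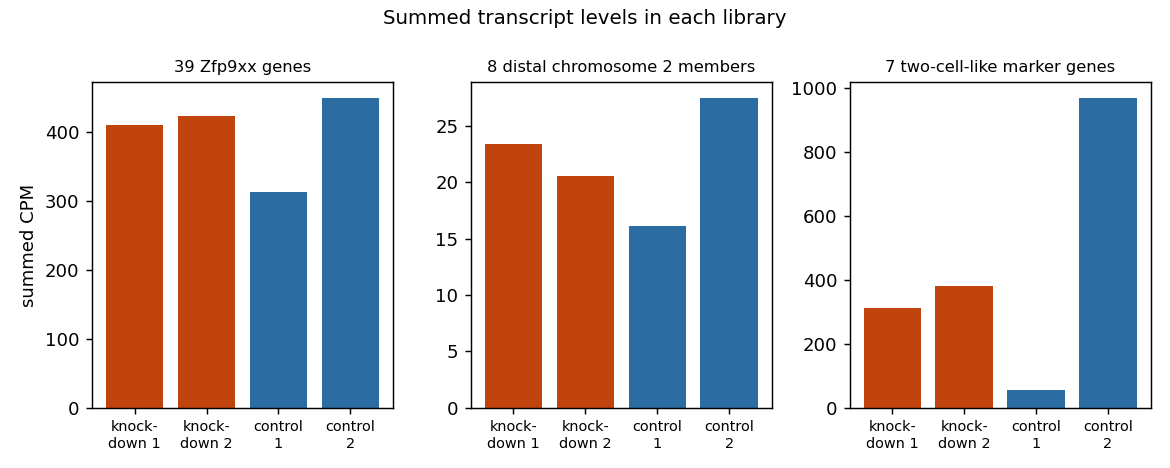
Summed CPM per library of the 39 Zfp9xx genes (left), of the 8 members of the distal chromosome 2 group (middle) and of 7 markers of the 2-cell-like state (right). Bars are single libraries, knockdown in orange and control in blue; in each panel control replicate 1 is lowest and control replicate 2 highest.

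Genes of the machinery through which KRAB zinc finger proteins silence did not pass the edgeR test either. Of 28 tested genes for TRIM28, SETDB1, HP1 and chromatin partners, edgeR's quasi-likelihood test called 0, and the median log2 fold change was -0.03. At an unadjusted p below 0.05, 4 were higher and 3 lower, together 25% of the list, against 19.6% of all tested genes. DESeq2 called 3 of the 28, Atf7ip, Cbx3 and Uhrf1, where it called 6.83% of all tested genes. Trim28, the scaffold gene, had 2131 and 1901 CPM in the knockdown libraries and 2461 and 1890 CPM in the controls, with overlapping groups (log2 fold change -0.11, edgeR adjusted p = 0.820). Setdb1, the methyltransferase gene, had 237 and 268 CPM in the knockdown libraries and 211 and 223 CPM in the controls (log2 fold change 0.22, SE 0.17, edgeR adjusted p = 0.527). Atf7ip, whose product stabilises SETDB1, had 260 and 295 CPM in the knockdown libraries and 192 and 141 CPM in the controls. Both knockdown levels were above both control levels, and its p was the smallest of the list (log2 fold change 0.74, SE 0.20, edgeR adjusted p = 0.106). Cbx3, an HP1 gene, had 88.8 and 87.7 CPM in the knockdown libraries and 140 and 127 CPM in the controls (log2 fold change -0.60, SE 0.17, edgeR adjusted p = 0.112). Uhrf1, whose product guides maintenance DNA methylation, had 406 and 354 CPM in the knockdown libraries and 737 and 507 CPM in the controls (log2 fold change -0.71, SE 0.22, edgeR adjusted p = 0.138). In both of these the groups did not overlap, with the knockdown libraries lower. Of 26 tested zinc finger genes listed as KRAB genes with known targets, 0 were called by edgeR or DESeq2, with a median log2 fold change of 0.14. At an unadjusted p below 0.05 in the edgeR fit there were 3 (11.5%), against 19.6% of all tested genes. These were Zfp874a, Zfp689 and Zfp809, all higher in the knockdown libraries. The log2 fold change was 1.21 for Zfp874a (edgeR adjusted p = 0.121) and 0.83 for Zfp689 (edgeR adjusted p = 0.176). Zfp57, which protects imprinted methylation, was not 1 of the 3 and differed by 0.21 on the log2 scale (edgeR adjusted p = 0.567). Zfp809, which recognises murine leukaemia virus, had 34.6 and 42.4 CPM in the knockdown libraries and 24.5 and 26.8 CPM in the controls (log2 fold change 0.59, SE 0.22, edgeR adjusted p = 0.190). Of 311 other numbered Zfp genes 3 were called by edgeR, all higher, or 0.965%. Among all tested genes 1.43% were called, 0.876% as higher. The median log2 fold change of the 311 genes was 0.10.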

How the data were processed

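Selected mRNA of 2 knockdown and 2 control libraries was sequenced. The deposited values are whole-number read counts for each gene, not normalized. Cutadapt, HISAT2, featureCounts and the build mm10 are named in the submitters' processing notes; for versions, annotation, strand setting and multimapping reads, nothing is given in the sources used here. Of 36068 rows, 92 spike-in rows, at 0 in every library, were left out, and 27 rows whose symbols had become dates were kept and not named. Total counts were 18592224 and 16383323 in the knockdown libraries and 19867689 and 19044832 in the controls. Genes were filtered with filterByExpr (16209 kept), scaled by TMM and tested with edgeR 4.0.16 in R 4.3.3, group being the only term; the procedure was tested on simulated data. Standard errors (SE) were derived from each log2 fold change and its F statistic, and 95% intervals use the fit's degrees of freedom. The spread between libraries was a biological coefficient of variation of 24.9%, so for genes of a few CPM both counting error and the number of libraries limit precision.

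The genes, lists and tests were chosen with earlier results of these data known. Genes named by rule were those called, the 6 largest changes each way among those whose mean reached 1 CPM, the 6 most abundant, the 4 smallest p-values, Zfp932, Zfp961 and the genes beside the count limit; others are named within their position group, and further genes were chosen after their values were seen. Sequence sharing was computed with 100-base stretches, on both strands, from GENCODE M21 transcripts; promoter windows are RefSeq GRCm38.p6. Finger motifs were C-x2-C-x12-H-x3 or 4-H in translated coding sequences. Alternatives were 3 scalings, 2 filters, DESeq2 1.42.0, a likelihood ratio test, a replicate block, an adjusted p of 0.1 and leaving out each library; summing genes of identical coding sequence and keeping genes with little shared sequence were added after seeing the data.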

Additional observations from a re-analysis of the deposited data

How the results depend on the processing

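In no alternative fit was any Zfp9xx gene called, nor at an adjusted p of 0.1 in the quasi-likelihood test; the likelihood ratio test put 1, Zfp943, at 0.098, and the smallest adjusted p ran from 0.098 to 0.349 over the alternatives. The count over all tested genes, 232, was 1717 without a filter, 1107 with DESeq2, 1310 with the likelihood ratio test and 910 at an adjusted p of 0.1, and lay between 153, without knockdown replicate 2, and 587, with control replicate 1 left out. With the replicate number as a block it was 656, with 0 Zfp9xx genes. The labels do not say whether same-numbered libraries are pairs. Deviations of same-numbered libraries from their group means had r = -0.06 across 16209 genes, which are not independent. A single value over all genes cannot show that pairs are absent. The median log2 fold change of the Zfp9xx genes ran from -0.21 to 0.26 without 1 library. It was 0.02 with genes of identical coding sequence summed, and -0.0060 over the 26 genes with little shared sequence.

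Of the 39 genes, 22 kept their direction in each of the 12 alternative fits that tested them singly; 3 of the 22, Zfp947, Zfp965 and Zfp968, were not tested under the mean count filter. Zfp970 was at -0.0017 with RLE scaling and with DESeq2 and at -0.024 with upper quartile scaling, where Zfp937 was at -0.013, and Zfp972 was at 0.035 with total counts only. Leaving out 1 library gave both directions in 17 genes, with lowest and highest log2 fold changes of -0.49 and 0.11 for Zfp934, -0.32 and 0.43 for Zfp937, -0.45 and 0.30 for Zfp938, -0.48 and 0.26 for Zfp939, -0.56 and 0.46 for Zfp942, -0.67 and 0.046 for Zfp944, -0.33 and 0.16 for Zfp945, -0.21 and 0.43 for Zfp949, -0.13 and 0.78 for Zfp950, -0.76 and 0.055 for Zfp952, -0.047 and 0.59 for Zfp961, -0.24 and 0.79 for Zfp964, -0.18 and 0.42 for Zfp966, -0.47 and 0.69 for Zfp970, -0.16 and 0.43 for Zfp971, -0.26 and 0.19 for Zfp972 and -0.97 and 0.10 for Zfp973. The cause was not tested. A group left with 1 library is assumed to vary like the other.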
